A study of Homo sapiens with 20 samples.

Results

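The 34 tight junction genes described here are 19 claudins, 3 MARVEL-domain proteins (OCLN, MARVELD2 and MARVELD3), the tricellular receptor LSR, 3 junctional adhesion molecules (F11R, JAM2 and JAM3), 4 cytoplasmic scaffolds (TJP1, TJP3, CGN and CGNL1) and 4 polarity proteins (PARD3, PARD6B, CRB3 and PATJ). They are named by symbol, in a list drawn up with earlier results of these data known, and are 34 of the 31155 gene identifiers in the study's 5 expression tables. RNA-seq was done on H1, an established human embryonic stem cell line, in 10 groups of 2 libraries. In the first table, unmodified cells at day 3 of differentiation towards surface epithelium (SE D3) stand against unmodified undifferentiated cells (hESC). In the other 4 tables, H1 cells carrying a hairpin RNA against FOXO4 (shFOXO4) or SP6 (shSP6), differentiated towards surface epithelium and taken at day 3 (initiation) or day 7 (maturation), stand against cells treated with a scrambled hairpin and differentiated to the same day. Each knockdown has its own scramble cells at each day: scramble_F for shFOXO4 and scramble_S for shSP6. FOXO4 is a forkhead transcription factor and SP6 a zinc-finger factor of the SP family. The labels do not say whether replicates were separate cultures, so the p-values measure only the spread between these libraries, which may be technical.

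Tight junctions are the belts near the apex of epithelial cells that close the space between neighbours. Claudins, small proteins of the cell membrane, form their strands, and the set of claudins a cell makes decides which ions and molecules pass: some seal the gap and others form channels. Occludin and tricellulin sit in the strands and at the corners where several cells meet, the ZO proteins (TJP genes), cingulin and paracingulin tie the strands to actin and signalling from the inside, JAMs join cells through immunoglobulin domains, and the PAR and Crumbs proteins set the apical border at which the junction forms. Human embryonic stem cells already grow as an epithelium with tight junctions, and CLDN6 is the claudin they are best known for. A switch from one set of claudins to another accompanies the formation of many epithelia.

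Values are normalized counts as deposited, each table scaled on its own 4 libraries, so levels are compared only within a table. Changes are log2 changes of (value + 1) with their standard error (SE), always SE D3 over hESC or knockdown over its own scramble, from limma fitted to every gene whose table mean reached 10. A gene counts as called where its p, adjusted by Benjamini-Hochberg over those genes, was under 0.05, and "rose" or "fell" is used only of called genes.

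The libraries held 14937104 to 30328846 recovered reads. FOXO4 in shFOXO4 cells was at 16.4% of its scramble mean at day 3 and at 3.21% at day 7, and SP6 in shSP6 cells at 14.1% and 2.51%. SP6 in shFOXO4 cells was at 34.2% and 9.68% of scramble, and FOXO4 in shSP6 cells at 95.4% and 17.6%, so at day 7 both factors were low in both knockdowns. The summed level of 9 markers of simple epithelium was 122363 to 129327 in SE D3 against 28451 to 28786 in hESC (440% of the hESC mean). Within each knockdown table its mean was at 33.7% and 28.4% of scramble in shFOXO4 at day 3 and day 7, and at 32.7% and 21.0% in shSP6, with no overlap between groups. The summed level of the 8 markers of pluripotent cells ran the other way, with 87362 to 91708 in SE D3 against 134457 to 135284 in hESC. Its means were at 168% and 321% of scramble in shFOXO4 at day 3 and day 7, and at 180.1% and 147% in shSP6. The mitochondrially encoded share of values was 8.42% to 9.05% in the 4 libraries of the shFOXO4 day 7 table and 1.45% to 3.85% in the other 16. The part of these differences in the results below was not tested. In bulk RNA, fewer cells of one type and less RNA per cell cannot be told apart.

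Between SE D3 and hESC, the junction genes did not move as a block: CLDN2, CLDN4, CLDN6, CLDN7, CLDN9, CLDN10, occludin and the scaffolds TJP1, TJP3 and CGN rose, while CLDN1, CLDN3, CLDN5, CLDN11, CLDN19, the 3 JAMs and CGNL1 fell. Of the 28 members that passed the filter, 14 rose, 9 fell and 5 were not called; 1 of the rises (CLDN2) and 1 of the falls (CLDN5) passed the filter only through the group where they were high, and without them the counts are 13 and 8 of 26. Of all 16217 genes tested, 72.2% were called, 35.2% higher and 37.0% lower, so the share of members called is close to that of all genes. The median change of the 28 was 0.15, against -0.020 over all genes. The 6 members below the filter were CLDN8, CLDN14, CLDN16, CLDN18, CLDN20 and CLDN23.

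Among the claudins, 6 of 13 tested rose and 5 fell. CLDN2 is among the 6 and CLDN5 among the 5, and both passed the filter only through the group where they were high. CLDN10, which forms channels for small ions, had 9723 and 8997 in SE D3 against 450.2 and 442 in hESC, a 21.0-fold higher mean and a log2 change of 4.39 ± 0.052 (limma adjusted p = 4.04e-15). CLDN4, a claudin of tight, sealing epithelia, had 5258 and 5296 in SE D3 against 1272 and 1350.3 in hESC, 4.02-fold higher (log2 change 2.01 ± 0.046, limma adjusted p = 8.41e-13). CLDN6, per kilobase the most abundant claudin in both groups, had 13779 and 13113 in SE D3 against 7246 and 7847 in hESC and a log2 change of 0.83 ± 0.043. For all 3 genes both SE D3 libraries lay above both hESC libraries. Groups did not overlap for 25 of the 28 members tested, and that share over all genes was not counted in any comparison. CLDN7, the claudin that binds the adhesion protein EPCAM directly, had 878 and 868 in SE D3 against 753 and 772 in hESC; its change of 0.20 ± 0.062 passed the test (limma adjusted p = 0.0128) but did not after quantile normalization (0.25), without SE D3 replicate 1 (0.0577) or without hESC replicate 1 (0.0645), all limma adjusted p-values. CLDN9, known from the inner ear, rose by 2.40 ± 0.27 at a low level, with 72.7 and 70.8 in SE D3 against 11.6 and 14.1 in hESC.

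On the falling side, CLDN11, the claudin of myelin and of the testis barrier, had 48.4 and 63.3 in SE D3 against 335 and 359 in hESC (log2 change -2.62 ± 0.16, limma adjusted p = 7.37e-09). CLDN19, a claudin of kidney and Schwann cells, had 181 and 222 in SE D3 against 426 and 434 in hESC and a change of -1.10 ± 0.11. CLDN3, which like CLDN4 is a receptor for the Clostridium perfringens enterotoxin, had 308 and 329.7 in SE D3 against 449 and 488 in hESC and a change of -0.56 ± 0.090, opposite in sign to its neighbour in function. CLDN1, the barrier claudin of the epidermis, fell by less, with 183 and 172 in SE D3 against 242 and 259.9 in hESC. None of these 4 genes had overlapping groups, as was so for 25 of the 28 members tested. That share over all genes was not counted, so the separation is no particular mark of these genes.

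A pair of claudins was at 1 or 2 reads in one group, so their ratios carry wide counting intervals. CLDN2, a channel for sodium ions and water, had 46.3 and 39.7 in SE D3 against 0.964 and 1.08 in hESC; SE D3 over hESC was 42.0 with a 95% exact binomial interval of 11.3 to 352, which covers counting error only. CLDN5, the claudin of blood vessel endothelium, had 1.05 and 0 in SE D3 against 31.8 and 30.3 in hESC; its hESC over SE D3 ratio was 62.5, with an interval of 10.8 to 2507. Both reached a table mean of 10 only through the group where they were high, so they had to differ once tested, and their calls are a description and not support for a change. CLDN12 and CLDN15 were not called, with changes of -0.019 ± 0.067 and -0.0054 ± 0.21. The level of CLDN5 in hESC stands beside a summed level of endothelial markers of 2016 and 2257 in SE D3 against 6021 and 6163 in hESC, most of it KDR; of the 7 endothelial markers listed none was at 0 in all 4 libraries, 3 rose and 2 fell, and CDH5, the cadherin of endothelium, had 62.1 and 41.6 in SE D3 against 11.6 and 14.1 in hESC. The part of such cells was not tested.

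Of the other membrane proteins, OCLN (occludin) had 846 and 859.6 in SE D3 against 454 and 485 in hESC (log2 change 0.86 ± 0.071, limma adjusted p = 1.81e-07). MARVELD3 rose by 0.33 ± 0.093 and MARVELD2 (tricellulin) was not called at 0.027 ± 0.075; the MARVELD3 call was lost without SE D3 replicate 2 or hESC replicate 1. LSR, which brings tricellulin to the corners between cells, was not called at 0.097 ± 0.048, although it was called higher with TMM factors, with edgeR and without hESC replicate 2. All 3 JAMs fell. JAM2 had 75.8 and 111 in SE D3 against 215 and 222 in hESC (log2 change -1.25 ± 0.17). JAM3 had 644 and 651 in SE D3 against 1026 and 1033 in hESC (-0.67 ± 0.062), and F11R, the JAM of epithelia, changed by -0.23 ± 0.043.

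The scaffolds moved in both directions. CGN (cingulin) had 5088 and 4964 in SE D3 against 1309 and 1168 in hESC, 4.06-fold higher (log2 change 2.02 ± 0.055, limma adjusted p = 3.81e-12), whereas its relative CGNL1 (paracingulin) had 1250.2 and 1357 in SE D3 against 2136 and 2105 in hESC (log2 change -0.70 ± 0.055, limma adjusted p = 9.97e-08). TJP1, the ZO-1 protein that anchors claudins and occludin, had 4558 and 4427 in SE D3 against 2177 and 2257 in hESC, 2.03-fold higher. TJP3 (ZO-3) had 924 and 1066 in SE D3 against 512 and 557 in hESC and rose by 0.89 ± 0.080. Among the polarity genes PATJ, the scaffold of the Crumbs complex, rose by 0.78 ± 0.053, CRB3 by 0.49 ± 0.099 and PARD3 by 0.47 ± 0.050, and PARD6B was not called.

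**Figure D1:**
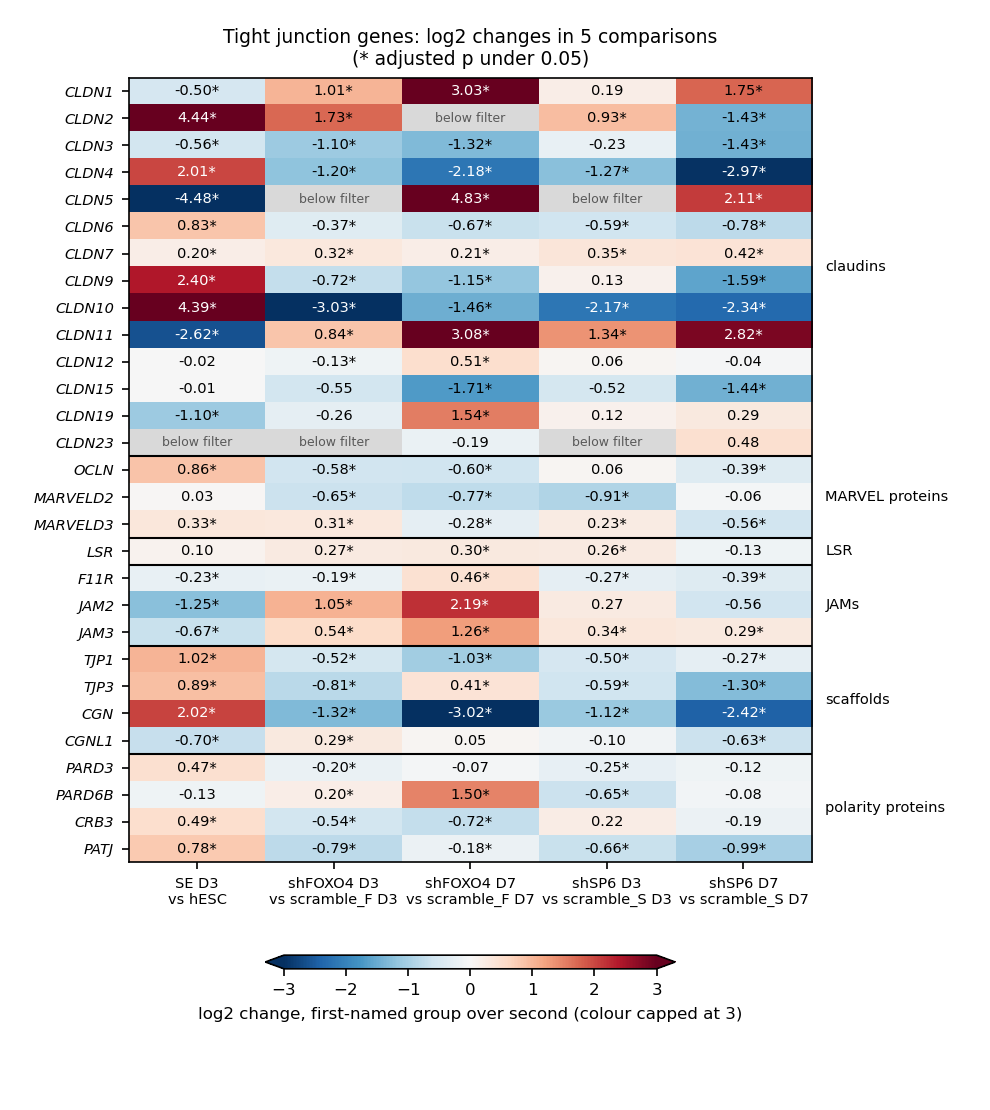
Log2 changes of the 29 tight junction genes tested in at least 1 table (rows, ordered by role) in the 5 comparisons (columns, first-named group over second), with an asterisk at a limma adjusted p under 0.05 and grey where the mean was below 10; the values of CLDN2 and CLDN5 in SE D3 and of CLDN5 in shFOXO4 D7 rest on 1 or 2 reads in one group. CLDN4, CLDN6, CLDN10, CGN and TJP1 are red in the first column and blue in the other 4, and CLDN11 and JAM3 are the reverse.

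The promoters of members that moved together are shown to let their sequence be compared: CLDN4, CLDN6, CLDN10, CGN and PATJ, which rose in SE D3 and fell in every knockdown, and CLDN11, which fell in SE D3 and rose in every knockdown. TJP1 has the calls of the first set and 4 starts in the table, which are not printed; JAM3 has the calls of CLDN11. Each window runs from 250 bases before to 50 bases after a transcription start of RefSeq on GRCh38.p14, 5′ to 3′ on the gene's strand; CLDN10 and CLDN11 have 2 starts in the table, of which both are given for CLDN10 and the first for CLDN11. Capitals mark matches, on either strand, to the letters GGGCGG (an SP-factor box), GCCNNNGGC (an AP-2 half-site pair), AACCNGTT (a grainyhead-like, GRHL, site) and GTAAACA (a FOXO site).
CLDN4, chr7:73830746-73831045, plus strand: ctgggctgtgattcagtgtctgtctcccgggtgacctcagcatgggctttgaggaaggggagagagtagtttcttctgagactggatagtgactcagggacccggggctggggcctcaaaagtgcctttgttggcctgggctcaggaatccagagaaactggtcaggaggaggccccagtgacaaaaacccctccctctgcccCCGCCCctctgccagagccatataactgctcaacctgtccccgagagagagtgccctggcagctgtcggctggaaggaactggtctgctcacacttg
CLDN6, chr16:3018134-3018433, minus strand: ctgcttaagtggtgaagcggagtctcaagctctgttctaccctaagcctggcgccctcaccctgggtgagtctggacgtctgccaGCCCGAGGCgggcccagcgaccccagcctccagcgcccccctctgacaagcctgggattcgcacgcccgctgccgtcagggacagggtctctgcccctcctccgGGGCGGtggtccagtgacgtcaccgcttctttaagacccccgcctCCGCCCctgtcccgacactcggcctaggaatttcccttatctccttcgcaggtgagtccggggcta
CLDN10 first start, chr13:95433505-95433804, plus strand: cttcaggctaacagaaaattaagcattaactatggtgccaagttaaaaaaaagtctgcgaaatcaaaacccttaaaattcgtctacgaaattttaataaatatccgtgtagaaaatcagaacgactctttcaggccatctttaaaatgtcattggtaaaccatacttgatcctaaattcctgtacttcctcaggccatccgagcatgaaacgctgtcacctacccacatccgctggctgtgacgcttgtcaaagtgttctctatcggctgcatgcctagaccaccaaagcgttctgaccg
CLDN10 second start, chr13:95552470-95552769, plus strand: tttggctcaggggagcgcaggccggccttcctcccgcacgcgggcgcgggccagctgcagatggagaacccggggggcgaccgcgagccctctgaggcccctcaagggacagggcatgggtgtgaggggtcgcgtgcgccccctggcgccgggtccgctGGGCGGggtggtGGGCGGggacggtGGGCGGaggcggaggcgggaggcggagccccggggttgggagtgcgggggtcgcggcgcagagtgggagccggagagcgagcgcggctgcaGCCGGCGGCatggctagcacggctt
CGN, chr1:151511137-151511436, plus strand: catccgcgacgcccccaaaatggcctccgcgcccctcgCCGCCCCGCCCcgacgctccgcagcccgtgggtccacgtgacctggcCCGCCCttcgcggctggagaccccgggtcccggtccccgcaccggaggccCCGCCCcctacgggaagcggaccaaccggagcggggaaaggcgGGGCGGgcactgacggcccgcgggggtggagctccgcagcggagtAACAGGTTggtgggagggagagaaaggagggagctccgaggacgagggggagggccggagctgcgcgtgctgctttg
PATJ, chr1:61742230-61742529, plus strand: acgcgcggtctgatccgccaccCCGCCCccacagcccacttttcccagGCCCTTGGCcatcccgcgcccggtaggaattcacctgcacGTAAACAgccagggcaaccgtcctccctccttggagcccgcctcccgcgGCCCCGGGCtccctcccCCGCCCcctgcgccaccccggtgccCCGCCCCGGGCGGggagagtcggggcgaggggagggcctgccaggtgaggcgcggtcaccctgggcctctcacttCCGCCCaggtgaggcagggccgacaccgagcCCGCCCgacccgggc
CLDN11 first start, chr3:170418618-170418917, plus strand: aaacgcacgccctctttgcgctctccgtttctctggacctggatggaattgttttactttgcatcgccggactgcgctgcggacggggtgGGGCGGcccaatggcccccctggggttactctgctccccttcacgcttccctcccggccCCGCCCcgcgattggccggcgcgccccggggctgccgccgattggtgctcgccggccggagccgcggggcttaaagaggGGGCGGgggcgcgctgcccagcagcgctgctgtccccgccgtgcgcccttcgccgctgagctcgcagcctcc

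The GRHL letters occur in 1.73% of the 35116 promoter windows of the table and in 1 of the 36 windows of the 23 members that have one, that of CGN, with its first base 27 bases before the start. The AP-2 letters occur in 23.2% of all windows and in 10 of the 36, the FOXO letters in 3.42% and in 2 (CLDN18 and PATJ), and the SP letters in 45.0% and in 22. Of the 6 members that rose in SE D3 and fell in every knockdown, PATJ is thus the one with the FOXO letters, with their first base at -162 from the start, in a window that also holds 3 AP-2 and 6 SP matches, some of which overlap. SP letters stand in windows of all 6 and equally in that of CLDN11, which moved the other way. The first CLDN10 window is rich in A and T and holds none of the searched letters, and the second holds 3 SP matches and 1 AP-2 match. A match is a description of the letters, not a binding site, and its absence says only that these letters are not in the window.

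In shFOXO4 cells at day 3, most of the genes that rose in unmodified day 3 cells were below scramble, led by CLDN10, while CLDN2, JAM2 and CLDN1 were above it. Of the 27 members tested, 10 rose, 15 fell and 2 were not called, where 62.7% of all 15697 genes tested were called, 31.8% higher and 30.8% lower. The median change was -0.26, against 0.0071 over all genes. CLDN5 and CLDN23 were below the filter, as were CLDN16, CLDN18 and CLDN20 in this and every other table. CLDN8 and CLDN14 are not listed in this table. They are listed in only 2 and 3 of the 5 tables, and were below the filter in each of those.

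CLDN10 had 689.6 and 654 in shFOXO4 D3 against 5718 and 5285 in scramble_F D3, 8.19-fold lower (log2 change -3.03 ± 0.051, limma adjusted p = 7.59e-39). CLDN4 had 1342 and 1413 in shFOXO4 D3 against 2992 and 3341 in scramble_F D3 (-1.198 ± 0.052). CLDN3, its fellow enterotoxin receptor, had 121 and 113 in shFOXO4 D3 against 269 and 235 in scramble_F D3 (-1.10 ± 0.12). CLDN6 fell by less, with 10072 and 9711 in shFOXO4 D3 against 12768 and 12714 in scramble_F D3 (log2 change -0.37 ± 0.037). All 4 of these claudins were lower in both knockdown libraries than in both scramble libraries, where groups were apart for all 27 members tested. That share over all genes was not counted, so the separation is no particular mark of these genes. CLDN1 rose, with 339 and 366 in shFOXO4 D3 against 167 and 181 in scramble_F D3 (1.01 ± 0.10). CLDN7, the EPCAM partner, also rose, with 1316 and 1254 in shFOXO4 D3 against 1029.7 and 1025 in scramble_F D3 (0.32 ± 0.057). The channel claudin CLDN2 had 125 and 124 in shFOXO4 D3 against 40.9 and 33.6 in scramble_F D3, a rise of 1.73 ± 0.18. It was also higher in unmodified SE D3 cells, where its call is no support for a change. CLDN11 rose by 0.84 ± 0.21. CLDN19 (-0.26 ± 0.14) and CLDN15 (-0.55 ± 0.26) were not called, CLDN15 being called lower with edgeR, with a pseudocount of 5, with a replicate block and without scramble replicate 1, and CLDN19 without scramble replicate 1. The low-level CLDN9 (18.1 and 17.3 in shFOXO4 D3 against 39.9 and 22.0 in scramble_F D3) and CLDN12 (-0.13 ± 0.053) were called lower, and both calls were lost in 5 or more of their alternatives, DESeq2 among them.

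OCLN had 648 and 751 in shFOXO4 D3 against 1048 and 1046 in scramble_F D3 (log2 change -0.58 ± 0.066, limma adjusted p = 2.19e-10). Its relative MARVELD2 fell by 0.65 ± 0.068 while MARVELD3 rose, with 650.3 and 627 in shFOXO4 D3 against 511 and 517 in scramble_F D3 (0.31 ± 0.071). CGN had 1874 and 1783 in shFOXO4 D3 against 4648 and 4484 in scramble_F D3 (-1.32 ± 0.046), the furthest below scramble of the scaffolds. TJP3 had 489 and 469.8 in shFOXO4 D3 against 774 and 910.4 in scramble_F D3 (-0.81 ± 0.073). TJP1 had 3957 and 4204 in shFOXO4 D3 against 5829 and 5888 in scramble_F D3 (-0.52 ± 0.042). CGNL1 rose, with 1814 and 1994 in shFOXO4 D3 against 1547 and 1570.2 in scramble_F D3 (0.29 ± 0.052), so that cingulin and paracingulin again moved in opposite directions. PATJ, the Crumbs scaffold, had 1247 and 1326 in shFOXO4 D3 against 2222 and 2225 in scramble_F D3 (-0.79 ± 0.051). CRB3, of the same complex, fell by 0.54 ± 0.11 and PARD3 fell by 0.20 ± 0.049. JAM2 had 151 and 151 in shFOXO4 D3 against 75.7 and 69.2 in scramble_F D3 (1.05 ± 0.15). JAM3 had 1001 and 1021 in shFOXO4 D3 against 660.2 and 728 in scramble_F D3 (0.54 ± 0.064). Both JAMs rose, while F11R, the JAM of epithelia, fell by 0.19 ± 0.045. JAM2, also a protein of endothelium, stands beside summed endothelial markers of 3553 and 3633 in shFOXO4 D3 against 2121 and 2253 in scramble_F D3, a KDR level of 2799 and 2759 in shFOXO4 D3 against 885 and 984 in scramble_F D3 and a CDH5 level of 2.13 and 12.96 in shFOXO4 D3 against 79.8 and 70.3 in scramble_F D3. CDH5 passed the filter there only through the scramble libraries, so a call of it is no support for a change. The part of such cells was not tested. LSR rose by 0.27 ± 0.049 and PARD6B by 0.20 ± 0.076; the PARD6B call was lost without shFOXO4 replicate 1, without scramble replicate 1 and with DESeq2.

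In shFOXO4 cells at day 7, CGN, CLDN4 and CLDN15 were the furthest below scramble among members with a mean of at least 100, and CLDN11, CLDN1 and CLDN19 the furthest above it. Of 28 members tested, 12 rose (11 of 27 without CLDN5, which passed the filter only through the knockdown libraries), 13 fell and 3 were not called, where 72.6% of all 16374 genes tested were called, 37.1% higher and 35.4% lower. The median change was -0.13, against 0.022 over all genes.

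CLDN11 had 240.4 and 199.6 in shFOXO4 D7 against 29.6 and 21.0 in scramble_F D7, 8.70-fold higher (log2 change 3.08 ± 0.25, limma adjusted p = 3.99e-06). The epidermal claudin CLDN1 had 604 and 711 in shFOXO4 D7 against 91.7 and 68.97 in scramble_F D7, 8.18-fold higher (3.03 ± 0.17). CLDN19 had 268 and 272 in shFOXO4 D7 against 106 and 80.0 in scramble_F D7 (1.54 ± 0.18). These 3 claudins had no overlap between groups, as was so for 26 of the 28 members tested. That share over all genes was not counted, so the separation is no particular mark of these genes. CLDN12 had 1153 and 1042 in shFOXO4 D7 against 816 and 724 in scramble_F D7 (0.51 ± 0.089). In the opposite direction, CLDN4 had 1353 and 1337 in shFOXO4 D7 against 6177 and 6011 in scramble_F D7, 4.53-fold lower (log2 change -2.18 ± 0.056, limma adjusted p = 4.55e-09). CLDN15, a sodium channel claudin of the gut, had 94.6 and 96.2 in shFOXO4 D7 against 297 and 332 in scramble_F D7 (-1.71 ± 0.15). CLDN10, whose scramble replicates differed widely, had 385 and 400.3 in shFOXO4 D7 against 1294 and 909.6 in scramble_F D7 (-1.46 ± 0.15). CLDN3 had 297 and 275 in shFOXO4 D7 against 681 and 753 in scramble_F D7 (-1.32 ± 0.10). The channel claudins CLDN10 and CLDN15 were thus lower together with the enterotoxin receptors CLDN3 and CLDN4. CLDN6 had 10739.9 and 10105 in shFOXO4 D7 against 16867 and 16235 in scramble_F D7 (log2 change -0.67 ± 0.055). CLDN7 had 1507 and 1606 in shFOXO4 D7 against 1274 and 1423 in scramble_F D7, and its small rise of 0.21 ± 0.077 was lost under 6 of 13 alternatives. CLDN9 fell by 1.15 ± 0.28, CLDN23 was not called and CLDN2 was below the filter.

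CLDN5 was at 40.7 and 55.4 in shFOXO4 D7 against 1.91 and 0 in scramble_F D7, the scramble value resting on 2 reads; the ratio was 50.05 with a 95% exact binomial interval of 13.4 to 420, and its call is no support for a change. Other genes of vessel endothelium moved in both directions. The summed endothelial markers were 4572 and 4872 in shFOXO4 D7 against 760 and 874 in scramble_F D7. TIE1 had 1034 and 1074 in shFOXO4 D7 against 11.5 and 4.00 in scramble_F D7 and KDR 3397 and 3671 in shFOXO4 D7 against 204 and 124 in scramble_F D7, both higher. TIE1, like CLDN5, passed the filter only through the knockdown libraries, so its call is no support for a change. CDH5 had 44.7 and 51.2 in shFOXO4 D7 against 246 and 385 in scramble_F D7 and VWF 31.5 and 25.1 in shFOXO4 D7 against 121 and 142 in scramble_F D7, both lower. Of 6 endothelial markers tested, 3 rose and 3 fell, and their part in the result was not tested.

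OCLN had 356 and 378 in shFOXO4 D7 against 531 and 588 in scramble_F D7 (log2 change -0.60 ± 0.10). MARVELD2 fell by 0.77 ± 0.089 and MARVELD3 fell by 0.28 ± 0.091, so all 3 MARVEL genes were lower, the MARVELD3 call being lost under 5 of 13 alternatives. All 3 JAMs were higher: JAM3 had 1521 and 1554 in shFOXO4 D7 against 630.5 and 656 in scramble_F D7 (1.26 ± 0.071, limma adjusted p = 4.46e-07). JAM2 rose by 2.19 ± 0.35 and F11R by 0.46 ± 0.055. CGN had 775 and 813 in shFOXO4 D7 against 6505 and 6406 in scramble_F D7, 8.13-fold lower (log2 change -3.02 ± 0.060, limma adjusted p = 1.36e-09). TJP1 had 2127 and 1891 in shFOXO4 D7 against 4015 and 4204 in scramble_F D7 (-1.03 ± 0.070). The scaffolds did not move together, since TJP3 rose by 0.41 ± 0.078 and CGNL1 was not called. Of the polarity genes, PARD6B rose, with 486 and 562 in shFOXO4 D7 against 173 and 197 in scramble_F D7 (1.497 ± 0.13). CRB3 fell by 0.72 ± 0.13, PARD3 was not called, and PATJ changed by -0.18 ± 0.065, a call lost under 7 of 13 alternatives. LSR rose by 0.30 ± 0.053.

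In shSP6 cells at day 3, the members furthest below scramble were again CLDN10, CLDN4 and CGN, and the furthest above it was CLDN11. Of 27 members tested, 6 rose, 11 fell and 10 were not called, where 55.8% of all 16548 genes tested were called, 28.3% higher and 27.5% lower. The median change was -0.10, against 0.0012 over all genes.

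CLDN10 had 1950.1 and 2289 in shSP6 D3 against 9518 and 9494 in scramble_S D3, 4.48-fold lower (log2 change -2.17 ± 0.073, limma adjusted p = 2.37e-08). CLDN4 had 1852 and 2052 in shSP6 D3 against 4561 and 4818 in scramble_S D3 (-1.27 ± 0.066). CLDN6 had 8973 and 9271 in shSP6 D3 against 13975 and 13490.4 in scramble_S D3 (-0.59 ± 0.053). All 3 were lower in both knockdown libraries than in both scramble libraries, where groups were apart for 22 of the 27 members tested. That share over all genes was not counted, so the separation is no particular mark of these genes. CLDN11 rose, with 186 and 199 in shSP6 D3 against 64.3 and 87.97 in scramble_S D3 (1.34 ± 0.17). CLDN7 rose too, with 1357 and 1466 in shSP6 D3 against 991 and 1229 in scramble_S D3 (0.35 ± 0.096). CLDN2 rose by 0.93 ± 0.18, and CLDN1, CLDN3, CLDN9, CLDN12, CLDN15 and CLDN19 were not called. CLDN5, with 16.2 and 13.01 in shSP6 D3 against 4.44 and 2.02 in scramble_S D3, and CLDN23, with 4.85 and 3.25 in shSP6 D3 against 4.44 and 7.08 in scramble_S D3, were below the filter and not tested. MARVELD2, the tricellulin gene, had 294 and 346 in shSP6 D3 against 621 and 580.4 in scramble_S D3 (-0.91 ± 0.10, limma adjusted p = 2.68e-05). OCLN was not called, with 1001 and 938 in shSP6 D3 against 964 and 902 in scramble_S D3, groups that overlap. The rise of MARVELD3, with 659 and 639 in shSP6 D3 against 561 and 542 in scramble_S D3 (0.23 ± 0.079), was lost under 3 of 13 alternatives. LSR rose, with 3837 and 3904 in shSP6 D3 against 3136 and 3332 in scramble_S D3 (0.26 ± 0.058).

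CGN had 2691 and 2860.4 in shSP6 D3 against 6226 and 5836 in scramble_S D3 (log2 change -1.12 ± 0.060, limma adjusted p = 1.67e-07). TJP1 had 4828 and 4779 in shSP6 D3 against 7070.1 and 6552 in scramble_S D3 (-0.50 ± 0.057), and TJP3 fell by 0.59 ± 0.070. Every called scaffold was thus lower, with CGNL1 not called. PARD6B, the PAR6 protein of the polarity complex, had 341 and 296 in shSP6 D3 against 477 and 526 in scramble_S D3 (-0.65 ± 0.10). PATJ had 1369 and 1383 in shSP6 D3 against 2309 and 2059.8 in scramble_S D3 (-0.66 ± 0.070). PARD3 fell by 0.25 ± 0.061, a call lost without shSP6 replicate 2, and CRB3 was not called. JAM3 rose, with 815 and 816 in shSP6 D3 against 656 and 630.0 in scramble_S D3 (0.34 ± 0.075), F11R fell by 0.27 ± 0.059 and JAM2 was not called.

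In shSP6 cells at day 7 the falls outnumbered the rises: CLDN4, CGN and CLDN10 were 5.24-fold to 7.85-fold below scramble, and CLDN11 and CLDN1 were 6.67-fold and 3.38-fold above it. Of 29 members tested, 5 rose, 15 fell and 9 were not called, where 58.6% of all 17535 genes tested were called, 29.0% higher and 29.6% lower. The median change was -0.39, against -0.015 over all genes.

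CLDN4 had 931 and 922 in shSP6 D7 against 7814 and 6733 in scramble_S D7 (log2 change -2.97 ± 0.086, limma adjusted p = 8.28e-09). CLDN10 had 348 and 312 in shSP6 D7 against 2177 and 1283 in scramble_S D7 (-2.34 ± 0.20), with scramble replicates that differed widely and still lay above both knockdown libraries. CLDN15 had 92.04 and 77.2 in shSP6 D7 against 233 and 227 in scramble_S D7 (-1.44 ± 0.17). CLDN3 had 255 and 197 in shSP6 D7 against 649 and 568 in scramble_S D7 (-1.43 ± 0.15), and CLDN6 10504 and 9656 in shSP6 D7 against 18254 and 16374 in scramble_S D7 (-0.78 ± 0.081). CLDN9 fell by 1.59 ± 0.24 and CLDN2 fell by 1.43 ± 0.35, at low levels, the CLDN2 call being lost with DESeq2 (adjusted p = 0.0516). CLDN11 had 1034 and 887 in shSP6 D7 against 93.3 and 195 in scramble_S D7 (2.82 ± 0.27, limma adjusted p = 1.38e-05), with scramble replicates that also differed widely. CLDN1 had 303 and 316 in shSP6 D7 against 94.5 and 88.5 in scramble_S D7 (1.75 ± 0.15). CLDN7 had 2294 and 1958 in shSP6 D7 against 1672 and 1505 in scramble_S D7 (0.42 ± 0.097), a call lost without shSP6 replicate 1 (limma adjusted p = 0.0511). CLDN5 rose by 2.11 ± 0.31, with 59.3 and 66.1 in shSP6 D7 against 11.4 and 16.6 in scramble_S D7, beside summed endothelial markers of 9485 and 9729 in shSP6 D7 against 1275 and 1709 in scramble_S D7 and a CDH5 level of 29.00 and 25.7 in shSP6 D7 against 141 and 113 in scramble_S D7. Of 6 endothelial markers tested there, 2 rose and 3 fell, and their part was not tested.

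CGN had 1043 and 1099 in shSP6 D7 against 6308 and 5185 in scramble_S D7 (log2 change -2.42 ± 0.098, limma adjusted p = 5.54e-08). TJP3 had 726 and 595 in shSP6 D7 against 1655 and 1576 in scramble_S D7 (-1.295 ± 0.11). TJP1 had 2518 and 2776 in shSP6 D7 against 3376 and 2998 in scramble_S D7 (-0.27 ± 0.087), and CGNL1 fell by 0.63 ± 0.085, so all 4 scaffolds were lower; the TJP1 call was lost with no filter, with DESeq2, and without shSP6 replicate 1 or scramble replicate 1. OCLN had 393 and 408 in shSP6 D7 against 549.8 and 504 in scramble_S D7 (-0.39 ± 0.11), a call lost without shSP6 replicate 1 or scramble replicate 1. MARVELD3 fell by 0.56 ± 0.11 and PATJ fell by 0.99 ± 0.076. JAM3 rose, with 959.5 and 977 in shSP6 D7 against 774 and 810.1 in scramble_S D7 (0.29 ± 0.088), a call lost without shSP6 replicate 1, shSP6 replicate 2 or scramble replicate 1, and F11R fell by 0.39 ± 0.074. MARVELD2, LSR, JAM2, PARD3, PARD6B, CRB3, CLDN12, CLDN19 and CLDN23 were not called.

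**Figure D2:**
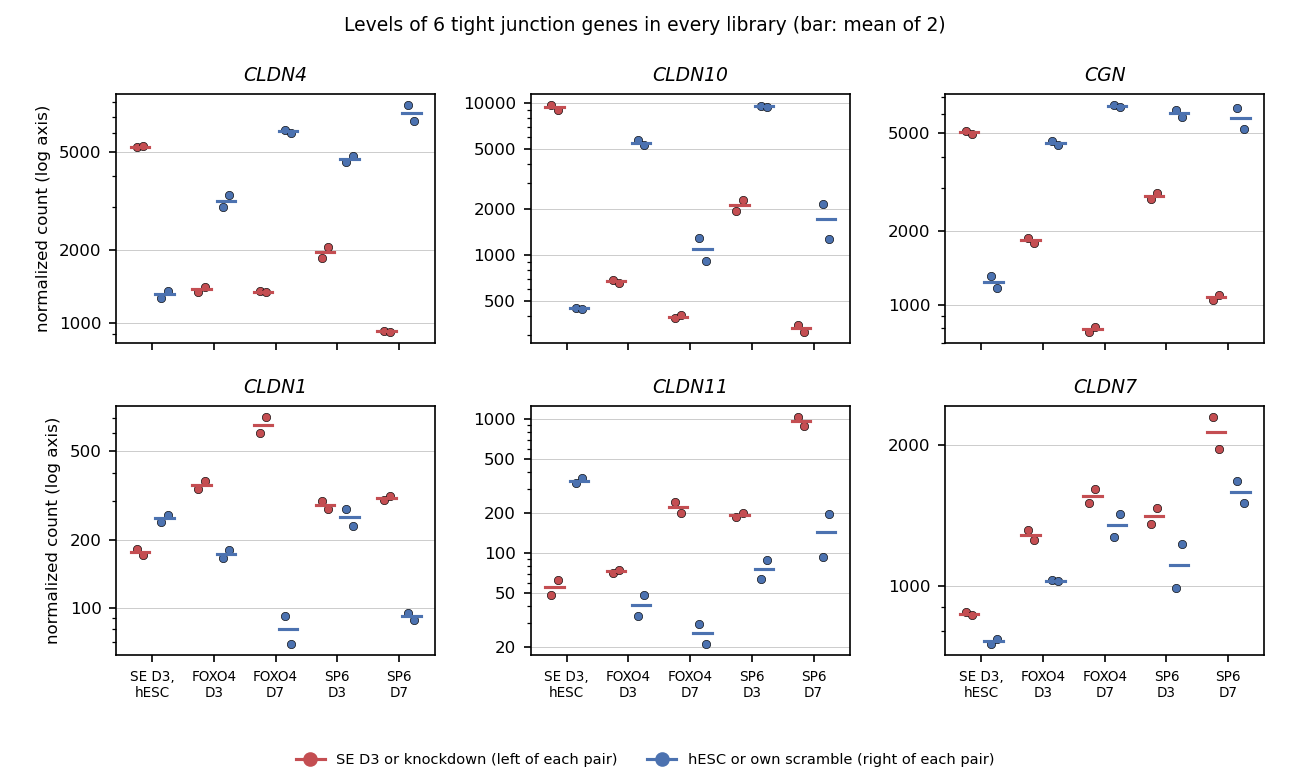
Normalized counts (log axis) of 6 tight junction genes in every library, with SE D3 or the knockdown in red to the left of hESC or its own scramble in blue; points are libraries and bars the mean of 2. CLDN4, CLDN10 and CGN are above hESC in SE D3 and below scramble in each knockdown, and CLDN11 is the reverse; levels are comparable only within a pair.

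Across the 4 knockdown comparisons, which share no library, 6 of the 26 members tested in all of them were lower each time: CLDN4, CLDN6, CLDN10, TJP1, CGN and PATJ. A further 3 were higher each time: CLDN7, CLDN11 and JAM3. Over all 14801 genes tested in the 4 comparisons, 12.3% were lower and 10.4% higher in every one. The calls of PATJ and CLDN7 in shFOXO4 at day 7, and of TJP1, CLDN7 and JAM3 in shSP6 at day 7, are among those lost under the alternatives named above. Other members were called in both directions: CLDN2, CLDN12, MARVELD3, TJP3, CGNL1, F11R and PARD6B each rose in at least 1 knockdown comparison and fell in at least 1 other. The share of all genes with that pattern was not counted. From shFOXO4 day 3 to day 7, 3 of 26 members went from lower to higher and 1 from higher to lower. Over all 14954 genes those shares were 4.82% and 6.11%. For shSP6 they were 0 and 2 of 27 members, and 1.82% and 1.81% of all 15992 genes.

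The 2 knockdowns were set side by side at each day. At day 3, 10 of 27 members were lower in both and 6 higher in both, and PARD6B alone was called in opposite directions, higher in shFOXO4 and lower in shSP6. Over all 15476 genes tested in both, 19.3% were lower in both and 18.5% higher in both. Those higher in shFOXO4 and lower in shSP6 were 2.02%, and the reverse 2.4%. At day 7, 11 of 28 members were lower in both and 5 higher in both (CLDN1, CLDN7, CLDN11, JAM3 and, on 2 scramble reads in shFOXO4, CLDN5), and TJP3 and F11R were higher in shFOXO4 and lower in shSP6. Over all 16043 genes, 22.4% were lower in both and 21.5% higher in both. Those higher in shFOXO4 and lower in shSP6 were 3.12%, and the reverse 2.37%.

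The SE D3 libraries share no sample with the knockdown tables either. Of the 14 members that rose in SE D3 and were tested there, 11 fell in shFOXO4 at day 3, where 52.8% of all genes that rose in SE D3 did so. In shFOXO4 at day 7 it was 10 of 13 (66.4% of such genes), in shSP6 at day 3 8 of 14 (51.1%) and in shSP6 at day 7 11 of 14 (56.2%). Of the members that fell in SE D3, 5 of 8 rose in shFOXO4 at day 3 (49.9% of such genes), 7 of 9 in shFOXO4 at day 7 (67.5%), 2 of 8 in shSP6 at day 3 (49.3%) and 4 of 9 in shSP6 at day 7 (49.3%). Without CLDN2 and CLDN5, which passed the filter in SE D3 only through one group, the members that rose in SE D3 and fell in a knockdown were 11, 10, 8 and 10 of 13 in the same order, and those that fell in SE D3 and rose were 5, 6, 2 and 3 of 8. In all, 7 members were called in the same direction in SE D3 and in at least 1 knockdown, among them CLDN2, whose SE D3 call is no support for a rise. That pattern was not counted over all genes. Of members that rose in SE D3, 3 of 14 also rose in shFOXO4 at day 3 (19.4% of such genes). At day 7 it was 2 of 13 (13.4%). In shSP6 it was 3 of 14 (13.3%) at day 3 and 1 of 14 (12.8%) at day 7. CLDN2 is among the 14, and among the 3 at day 3 for each hairpin. Of members that fell, 2 of 8 also fell in shFOXO4 at day 3 (804 of 5375 such genes). At day 7 it was 1 of 9 (10.5%). In shSP6 it was 1 of 8 (10.3%) at day 3 and 3 of 9 (12.4%) at day 7. CLDN7 was higher in all 5 comparisons. CLDN3 and F11R fell in SE D3 and in 3 of the 4 knockdown comparisons each. MARVELD3 rose in SE D3 and in both knockdowns at day 3, TJP3 rose in SE D3 and in shFOXO4 at day 7, and CGNL1 fell in SE D3 and in shSP6 at day 7. CLDN2 was called higher in the same comparisons as MARVELD3, but its SE D3 call supports no shared direction.

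The make-up of the claudins was compared as each gene's count per kilobase of exon, as a percent of the sum over all claudins in a library, a measure that does not depend on the scaling of the table. By this measure CLDN6 made up most of the claudin RNA in all 20 libraries. That majority depends on the length used, since by count CLDN10 and CLDN4 together exceeded CLDN6 in both SE D3 libraries. Per kilobase of exon, the share of CLDN6 was smaller, and that of CLDN10 larger, in SE D3 than in hESC. CLDN6 was 61.5% ± 0.193 in SE D3 and 73.5% ± 0.665 in hESC (SD, n = 2 each), and CLDN10 22.0% ± 0.506 in SE D3 and 2.24% ± 0.136 in hESC. CLDN4 was 8.94% ± 0.331 in SE D3 and 4.73% ± 0.025 in hESC, while CLDN3 was 1.99% ± 0.161 in SE D3 and 6.23% ± 0.073 in hESC. The reversed order of these 2 genes rests on their exon lengths, 4702 bases for CLDN4 and 1274 for CLDN3. By count, or with their coding lengths of 627 and 660 bases, CLDN4 was above CLDN3 in both groups. CLDN7 had 2.79% ± 0.066 in SE D3 and 5.19% ± 0.153 in hESC, although its count was slightly higher in SE D3. The summed level of all claudins per kilobase was 12566 ± 401 in SE D3 and 5901 ± 279 in hESC.

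At day 3 the knockdowns held a claudin mixture with less CLDN10 than their scrambles. CLDN10 was 2.75% ± 0.045 in shFOXO4 D3 and 15.3% ± 0.752 in scramble_F D3, and 8.34% ± 0.669 in shSP6 D3 and 22.0% ± 0.162 in scramble_S D3. The share of CLDN6 was higher by 9.84 points in shFOXO4 D3 than in scramble_F D3 and by 8.05 points in shSP6 D3 than in scramble_S D3, although its own count fell in both. CLDN7 was 7.15% ± 0.094 in shFOXO4 D3 and 3.88% ± 0.012 in scramble_F D3, and 7.54% ± 0.166 in shSP6 D3 and 3.49% ± 0.561 in scramble_S D3.

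At day 7 the claudin most reduced in share was CLDN4. It was 3.67% ± 0.077 in shFOXO4 D7 and 10.3% ± 0.037 in scramble_F D7, and 2.54% ± 0.147 in shSP6 D7 and 11.4% ± 0.205 in scramble_S D7. CLDN7 took the opposite course, with 8.02% ± 0.599 in shFOXO4 D7 and 4.31% ± 0.435 in scramble_F D7, and 10.9% ± 0.517 in shSP6 D7 and 4.70% ± 0.06 in scramble_S D7. CLDN1 reached 2.31% ± 0.331 in shFOXO4 D7, against 0.174% ± 0.031 in scramble_F D7. CLDN11 reached 3.30% ± 0.146 in shSP6 D7, against 0.292% ± 0.167 in scramble_S D7. The share of CLDN6 differed by only 1.11 points in shFOXO4 D7 and 1.07 points in shSP6 D7, and by 3.04 and 4.62 points where coding length replaced exon length.

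The summed claudin level per kilobase was lower in every knockdown group than in its scramble. It was 7215 ± 153 in shFOXO4 D3 and 10619 ± 69.2 in scramble_F D3, and 7801 ± 231 in shFOXO4 D7 and 12572 ± 287 in scramble_F D7. It was 7506 ± 248 in shSP6 D3 and 12766 ± 117 in scramble_S D3, and 7782 ± 501 in shSP6 D7 and 13567 ± 1183 in scramble_S D7 (SD, n = 2 each). With 2 libraries against 2, an exact two-sided permutation test cannot give a p under 0.333, so these sums and shares are given with no test. The exons of CLDN10 overlap those of DZIP1 on the opposite strand over 46.1% of their bases, and the strand setting of the counting is not given in the sources used here. DZIP1 itself changed by 0.29 in SE D3, by -0.040 and -0.19 in shFOXO4 at day 3 and day 7, and by 0.15 and -0.51 in shSP6, in each case by less than CLDN10 did. Overlaps also touch F11R (36.6% of exon bases, with a gene that had at most 3.94 counts in any library where it is listed), CLDN11 (18.3%), MARVELD3 (18.1%), CLDN12 (16.3%), CLDN7 (10.8%) and, over smaller shares, CLDN2 and JAM3, whose counts could be split with a neighbour.

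**Figure D3:**
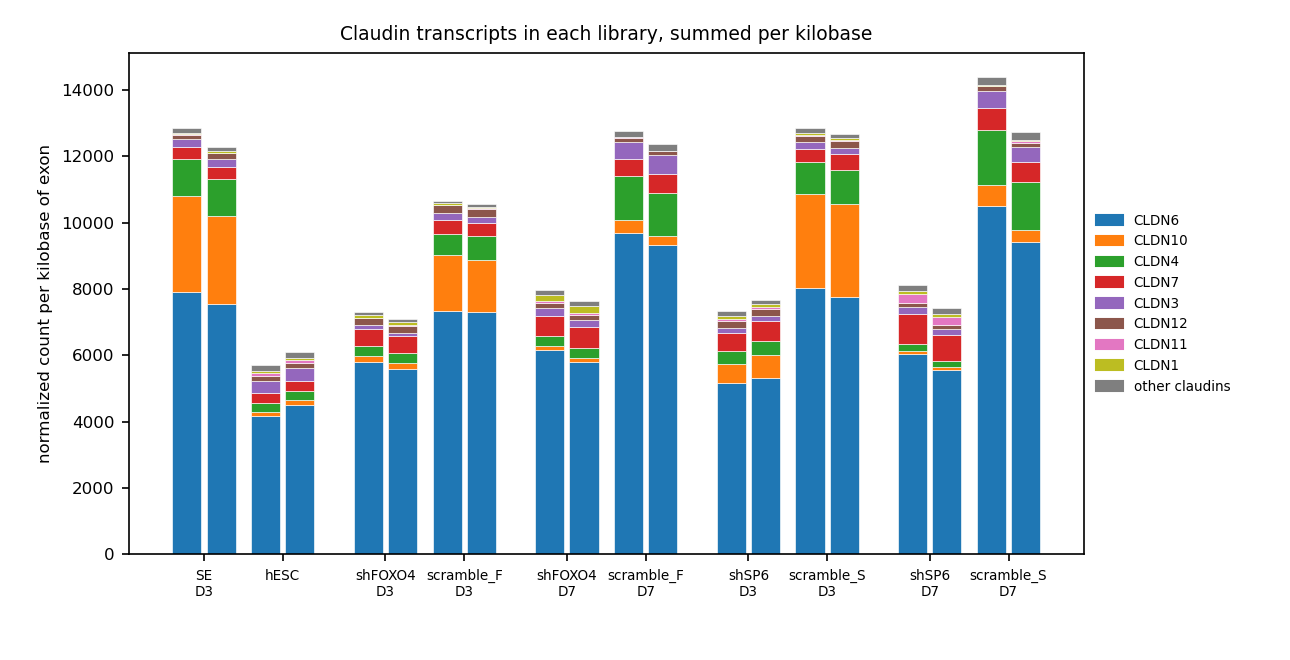
Stacked bars of normalized count per kilobase of exon for the claudins in each of the 20 libraries, 2 bars a group, with SE D3 left of hESC and each knockdown left of its own scramble. CLDN6 (blue) is the tallest part of every bar, CLDN10 (orange) is largest in SE D3 and the day 3 scrambles, and each knockdown bar is shorter than both bars of its scramble; heights are comparable only within the 4 bars of a table.

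Whether a knockdown's effect differed between days, or between the knockdowns, was tested over the 8 libraries of 2 tables. For shFOXO4, the day 7 effect minus the day 3 effect was called higher for 11 and lower for 6 of 26 members, where 62.7% of all 14954 genes were called, 32.1% higher and 30.7% lower. The highest were CLDN11 (2.24 ± 0.34), CLDN1 (2.01 ± 0.20) and CLDN19 (1.81 ± 0.23), and the lowest CGN (-1.70 ± 0.073), CLDN15 (-1.15 ± 0.29) and CLDN4 (-0.98 ± 0.083). CLDN1, for example, was 3.03 above its scramble at day 7 and 1.01 at day 3 on the log2 scale. For shSP6, 4 members were higher and 13 lower of 27, where 35.1% of all 15992 genes were called, 14.8% higher and 20.3% lower. CLDN1 (1.56 ± 0.18), CLDN11 (1.47 ± 0.38) and MARVELD2 (0.85 ± 0.14) were highest, and CLDN2 (-2.36 ± 0.33), CLDN9 (-1.73 ± 0.31) and CLDN4 (-1.70 ± 0.11) lowest. CLDN1 and CLDN11 were thus among the highest, and CLDN4 among the lowest, for both hairpins. The CLDN11 call for shSP6 was lost without shSP6 D7 replicate 1 (limma adjusted p = 0.0519).

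**Figure D4:**
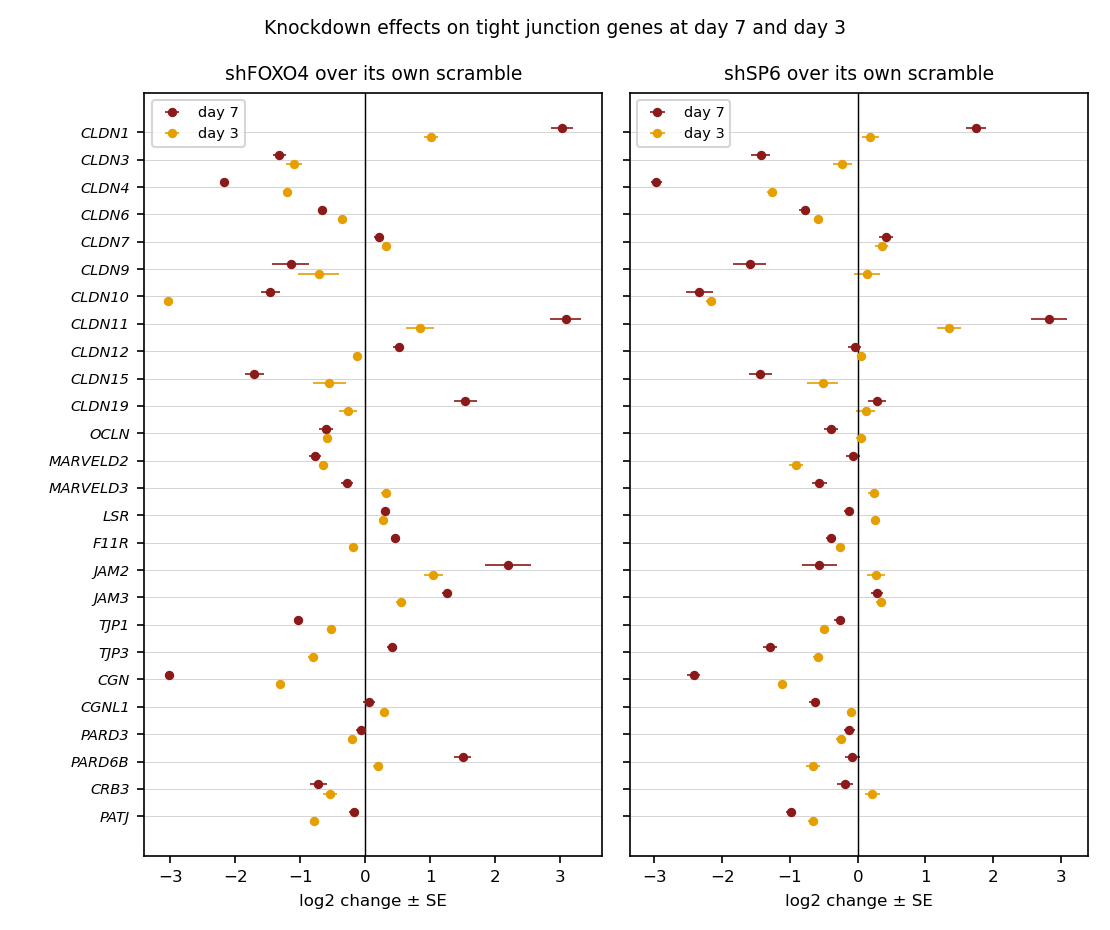
Log2 change ± SE of the 26 tight junction genes tested in all 4 knockdown comparisons, at day 7 (dark red) and day 3 (orange), for shFOXO4 (left) and shSP6 (right) over their own scrambles. CLDN1 and CLDN11 lie further right, and CLDN4 and CGN further left, at day 7 than at day 3 in both panels, while CLDN10 lies further left at day 3 for shFOXO4.

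The shSP6 effect minus the shFOXO4 effect at day 3 was called higher for 5 and lower for 6 of 27 members, where 36.8% of all 15476 genes were called, 18.7% higher and 18.1% lower. CLDN3 (0.87 ± 0.19), CLDN10 (0.86 ± 0.094) and CRB3 (0.76 ± 0.16) were highest, all 3 lying lower relative to scramble in shFOXO4. PARD6B (-0.85 ± 0.13), CLDN1 (-0.82 ± 0.16) and CLDN2 (-0.79 ± 0.25) were lowest, the CLDN2 call being lost without shSP6 replicate 1, shFOXO4 replicate 1, shFOXO4 replicate 2 or scramble_F replicate 2. At day 7, 4 were higher and 14 lower of 28, where 49.0% of all 16043 genes were called, 19.9% higher and 29.1% lower, and the median over all genes was -0.11. TJP1 (0.77 ± 0.12), MARVELD2 (0.71 ± 0.13) and CGN (0.61 ± 0.12) were highest, all 3 lying lower relative to scramble in shFOXO4. JAM2 (-2.76 ± 0.45) and TJP3 (-1.71 ± 0.14) were lowest among members above the filter level in every group; both rose in shFOXO4 D7, and in shSP6 D7 JAM2 was not called and TJP3 fell. The value of CLDN5 (-2.72 ± 0.70) is a description and supports no difference, since its scramble_F D7 level rests on 2 reads and the pseudocount sets its size; without it 13 of 27 members were lower. The other 5 lie further from 0 than the median of all genes.

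Other genes of the junction were read from lists chosen for their known roles. Over all genes tested, 35.2% rose and 37.0% fell in SE D3, 31.8% and 30.8% in shFOXO4 D3, and 37.1% and 35.4% in shFOXO4 D7. In shSP6 it was 28.3% and 27.5% at day 3 and 29.0% and 29.6% at day 7. The counts in SE D3 below are near those shares. Of 26 further tight junction genes, 9 rose and 10 fell of 24 tested in SE D3, with a median of -0.16. In the knockdowns it was 6 rising and 12 falling of 24 in shFOXO4 at day 3, 10 and 10 of 25 at day 7, and 9 and 9 of 25 in shSP6 at day 3 and 9 and 8 of 25 at day 7. AMOT and AMOTL2, angiomotins that bind the junction scaffolds and YAP, rose in SE D3 by 1.74 ± 0.072 and 1.84 ± 0.079. AMOT changed in shFOXO4 by -4.39 ± 0.092 at day 3 and -4.33 ± 0.084 at day 7, and in shSP6 by -3.02 ± 0.14 and -3.77 ± 0.12. MAGI3, a membrane-associated scaffold, rose in SE D3 by 1.62 ± 0.097 and changed in shSP6 by -1.76 ± 0.12 at day 3 and -2.29 ± 0.17 at day 7. Its relative MAGI2 ran the other way, with -0.91 ± 0.15 in SE D3, 0.85 ± 0.083 and 2.97 ± 0.13 in shFOXO4 at day 3 and day 7, and 1.65 ± 0.097 and 2.04 ± 0.16 in shSP6. CLMP, an adhesion protein related to the JAMs, rose in the knockdowns by 1.201 ± 0.10 and 1.61 ± 0.18 in shFOXO4 and by 1.29 ± 0.10 and 1.499 ± 0.14 in shSP6. ESAM, an adhesion molecule of endothelium, had 298 and 304 in shFOXO4 D7 against 2.87 and 0.9996 in scramble_F D7. It passed the filter there only through the knockdown libraries, so its call is no support for a change. Further genes named by the same rule were PARD6A (-0.87 ± 0.18) and RAB13 (-0.75 ± 0.049) in SE D3, PARD6A (0.46 ± 0.15), AMOTL1 (-1.73 ± 0.052) and AMOTL2 (-1.62 ± 0.055) in shFOXO4 D3, and CRB2 (-2.61 ± 0.15) and AMOTL2 (-2.57 ± 0.089) in shFOXO4 D7. In shSP6 they were PARD6A (1.09 ± 0.19) and AMOTL2 (-1.35 ± 0.057) at day 3, and ILDR2 (1.66 ± 0.23) and AMOTL2 (-1.43 ± 0.080) at day 7.

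EPCAM, an adhesion protein that binds CLDN7 and holds it in the membrane, and the matriptase pathway (ST14, PRSS8, SPINT1 and SPINT2), which cleaves EPCAM, make 5 genes. In SE D3, 4 of the 5 rose and 1 (SPINT1, -0.14 ± 0.044) fell, with a median of 1.15; EPCAM had 9808 and 9548 in SE D3 against 3102 and 2997 in hESC (1.67 ± 0.039), ST14 (matriptase) rose by 1.196 ± 0.092 and PRSS8 (prostasin) by 1.15 ± 0.053. None rose in a knockdown: 4, 5, 4 and 4 of 5 fell in shFOXO4 at day 3 and day 7 and in shSP6 at day 3 and day 7, with medians of -1.12, -1.13, -1.06 and -1.10. Over all genes, 35.2% rose and 37.0% fell in SE D3, and 30.8%, 35.4%, 27.5% and 29.6% fell in the knockdowns in that order. EPCAM changed by -1.29 ± 0.041 in shFOXO4 D3, -1.13 ± 0.052 in shFOXO4 D7, -1.26 ± 0.071 in shSP6 D3 and -1.10 ± 0.082 in shSP6 D7. The proteases were lower too, PRSS8 by a log2 change of -1.18 ± 0.052 in shFOXO4 D3, -1.201 ± 0.074 in shFOXO4 D7 and -1.54 ± 0.085 in shSP6 D7, and ST14 with -2.21 ± 0.071 in shFOXO4 D7 and -1.47 ± 0.081 in shSP6 D3. EPCAM is also 1 of the 9 simple epithelium markers.

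Of 10 transcription factors known to act on junction genes, 7 rose and 2 fell of 9 tested in SE D3, where 35.2% of all genes rose and 37.0% fell. The grainyhead-like factors activate claudin and cadherin genes in epithelia: GRHL3 had 3596 and 3792 in SE D3 against 22.2 and 12.99 in hESC (7.68 ± 0.18) and GRHL1 rose by 4.21 ± 0.096. SNAI1, a repressor of claudin and occludin genes, fell by 1.99 ± 0.16, whereas TWIST1, a mesenchymal regulator, rose by 4.92 ± 0.27. In shFOXO4, 2 rose and 6 fell of 8 at day 3 (31.8% and 30.8% of all genes), and 2 rose and 4 fell of 8 at day 7 (37.1% and 35.4%). At day 3 and day 7, GRHL1 changed by -2.80 ± 0.070 and -2.80 ± 0.083, OVOL2 changed by -1.44 ± 0.11 and -2.75 ± 0.19, and GRHL2 changed by -1.18 ± 0.053 and -2.55 ± 0.079, while OVOL1 rose by 0.47 ± 0.13 at day 3 and SNAI1 had 409 and 411 in shFOXO4 D7 against 46.8 and 47.0 in scramble_F D7 (3.10 ± 0.16). In shSP6, none rose and 6 fell of 9 at day 3 (28.3% and 27.5% of all genes), and 3 rose and 5 fell of 8 at day 7 (29.0% and 29.6%). GRHL1 fell by 2.001 ± 0.097, TWIST1 fell by 1.88 ± 0.13 and GRHL2 fell by 1.303 ± 0.067 at day 3. At day 7 GRHL3 had 132 and 136 in shSP6 D7 against 2419 and 1857 in scramble_S D7 (-3.97 ± 0.13), OVOL2 fell by 3.89 ± 0.19 and GRHL1 fell by 3.53 ± 0.16, and SNAI1 rose by 0.58 ± 0.16. These factors and the junction genes moved in the same libraries, and a link between them was not tested.

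Markers of other cell types were read from 8 lists. Beside their counts, the shares of all genes that rose and fell were 35.2% and 37.0% in SE D3, 31.8% and 30.8% in shFOXO4 D3, and 37.1% and 35.4% in shFOXO4 D7. For shSP6 the shares were 28.3% and 27.5% at day 3 and 29.0% and 29.6% at day 7. Of 9 simple epithelium markers, 9 rose in SE D3, and 8, 8, 9 and 9 fell in shFOXO4 at day 3 and day 7 and in shSP6 at day 3 and day 7. In shFOXO4 D7, 1 of them rose. Of 8 pluripotent markers, 6 fell and 2 rose in SE D3. In the same 4 knockdown comparisons 8, 7, 7 and 6 of them rose, and 2 fell in shSP6 D7. Keratinocyte markers summed to 132 and 142 in SE D3 against 19.3 and 12.99 in hESC, with 2 of 7 at 0 in all 4 libraries, and their mean sum was at 14.4% and 20.6% of scramble in shFOXO4 at day 3 and day 7 and at 34.5% and 43.8% in shSP6. Of those tested, 2 of 3 rose in SE D3, 2 of 2 fell in shFOXO4 D3, 1 of 6 rose and 2 fell in shFOXO4 D7, 1 of 3 rose and 2 fell in shSP6 D3, and 3 of 4 rose and 1 fell in shSP6 D7. Mesenchymal markers summed to 66855 and 62128 in shSP6 D7 against 33787 and 38439 in scramble_S D7, and 5 of 9 rose and 4 fell there. In the other comparisons 5 of 7 rose and 2 fell in SE D3, 7 of 7 fell in shFOXO4 D3, 4 of 9 rose and 4 fell in shFOXO4 D7, and 1 of 8 rose and 5 fell in shSP6 D3. Neural ectoderm markers summed to 14393 and 15187 in shSP6 D7 against 6861 and 6668 in scramble_S D7, although 1 of 4 rose and 2 fell. They had 2 of 4 higher and 1 lower in SE D3, 1 of 5 lower in shFOXO4 D3, 1 of 4 higher and 1 lower in shFOXO4 D7, and 3 of 5 higher and 1 lower in shSP6 D3. Endothelial markers in the comparisons not described above had 2 of 6 higher and 2 lower in shFOXO4 D3, and 3 of 6 higher and 2 lower in shSP6 D3, where they summed to 5743 and 5355 in shSP6 D3 against 2052 and 2285 in scramble_S D3. Endoderm markers averaged a sum of 140.3 in SE D3 against 47.6 in hESC, 52.6 in shFOXO4 D3 against 269.7 in scramble_F D3, 122 in shFOXO4 D7 against 148 in scramble_F D7, 497 in shSP6 D3 against 271 in scramble_S D3 and 627 in shSP6 D7 against 65.8 in scramble_S D7. They had 2 of 4 higher in SE D3, 2 of 2 lower in shFOXO4 D3, 2 of 3 higher and 1 lower in shFOXO4 D7, 2 of 4 higher and 1 lower in shSP6 D3, and 2 of 4 higher in shSP6 D7. The trophoblast sum averaged 581 in SE D3 against 707 in hESC, and was at 209% and 48.2% of scramble in shFOXO4 at day 3 and day 7 and at 168% and 98.2% in shSP6. Trophoblast markers had 2 of 2 lower in SE D3, 1 of 3 higher and 1 lower in shFOXO4 D3, 4 of 4 lower in shFOXO4 D7, 1 of 4 higher and 1 lower in shSP6 D3, and 1 of 4 higher and 2 lower in shSP6 D7. Markers that passed the filter only through one group are included in these counts and were not counted apart. The part of any of these cell types in the junction results was not tested.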

How the data were processed

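Poly(A) RNA of 20 H1 libraries was sequenced with a stranded kit, per the labels' protocols, and the 5 tables hold the authors' deposited signal: gene counts divided by size factors, called normalized counts here. Per the submitters' processing notes, hg19, DESeq2 1.20.0, RSEM 1.3.0, STAR 2.6.1 and Trimmomatic 0.39 were used, in roles that are not given. In all 20 libraries 100.0% of values were whole multiples of 1 read (tolerance 0.001), which gave 14937104 to 30328846 reads per library.

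Library groups came from the labels, and the columns' day and scramble set from the name of the table they stand in. Log2(value + 1) of every gene whose table mean reached 10 was fitted with limma 3.58.1 in R 4.3.3 (moderated variance with a trend) on the table's 4 libraries, with Benjamini-Hochberg adjustment over all genes tested. Differences between effects were fitted on 8 libraries of 2 tables. On the recovered reads edgeR 4.0.16 called 11891, 9935, 12092, 9330 and 10414 genes in the 5 comparisons, against 11710, 9838, 11881, 9232 and 10268 with limma. Other alternatives were the pseudocount, the filter, TMM, quantile scaling, a replicate block, leaving out each library, and DESeq2 1.42.0. On simulated counts, with few genes changed and the same spread setting for every gene, limma recovered 68% to 79% of 1.5-fold and 87% to 93% of 2-fold changes. Far more genes were called in the real data, so these rates are not the power of these comparisons. Replicates differed by more than counting noise (chi-square per degree of freedom 1.70 to 7.24). Symbols and lengths are from GENCODE on GRCh38, promoters from RefSeq on GRCh38.p14; no coordinate was converted. Intervals cover counting error only.

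The 34 members and all lists were chosen with earlier results of these data known. Library values are given, for each comparison, for up to 6 called members in each direction with a mean of at least 100, for CLDN4, CLDN6, CLDN7, OCLN and TJP1, and for low-level members with a caveat, which were added after their values were seen. Differences name up to 3 called members in each direction. Lists of further junction genes, claudin partners and regulators name up to 3 called genes in each direction with a mean of at least 100; the simple epithelium, pluripotent, keratinocyte, neural ectoderm, mesenchymal, endothelial, endoderm and trophoblast markers are given by counts and sums. The list of claudin partners is given, with no test, without 1 gene that is not reported here.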

Additional observations from a re-analysis of the deposited data

Results flagged for a closer look

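The 24 values below are differences between 2 knockdown effects that passed limma's test at an adjusted p under 0.05, on the log2 scale with SE, each followed by the 2 effects it is made of; that of CLDN5 is given as a value only.

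For shFOXO4, day 7 minus day 3, CLDN11 differed by 2.24 ± 0.34 (effects 3.08 and 0.84), CLDN1 by 2.01 ± 0.20 (3.03 and 1.01) and CLDN19 by 1.81 ± 0.23 (1.54 and -0.26). CGN had -1.70 ± 0.073 (-3.02 and -1.32), CLDN15 -1.15 ± 0.29 (-1.71 and -0.55) and CLDN4 -0.98 ± 0.083 (-2.18 and -1.198). For shSP6, day 7 minus day 3, CLDN1 had 1.56 ± 0.18 (1.75 and 0.19), CLDN11 1.47 ± 0.38 (2.82 and 1.34) and MARVELD2 0.85 ± 0.14 (-0.064 and -0.91). On the low side CLDN2 had -2.36 ± 0.33 (-1.43 and 0.93), CLDN9 -1.73 ± 0.31 (-1.59 and 0.13) and CLDN4 -1.70 ± 0.11 (-2.97 and -1.27).

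For shSP6 minus shFOXO4 at day 3, CLDN3 had 0.87 ± 0.19 (-0.23 and -1.10), CLDN10 0.86 ± 0.094 (-2.17 and -3.03) and CRB3 0.76 ± 0.16 (0.22 and -0.54). PARD6B had -0.85 ± 0.13 (-0.65 and 0.20), CLDN1 -0.82 ± 0.16 (0.19 and 1.01) and CLDN2 -0.79 ± 0.25 (0.93 and 1.73). For shSP6 minus shFOXO4 at day 7, TJP1 had 0.77 ± 0.12 (-0.27 and -1.03), MARVELD2 0.71 ± 0.13 (-0.064 and -0.77) and CGN 0.61 ± 0.12 (-2.42 and -3.02). JAM2 had -2.76 ± 0.45 (-0.56 and 2.19), CLDN5 -2.72 ± 0.70 (2.11 and 4.83) and TJP3 -1.71 ± 0.14 (-1.295 and 0.41). CLDN5 passed the filter in the shFOXO4 day 7 table only through the knockdown libraries, with 2 reads in the scramble, and its value depends on the pseudocount, so its test supports no difference.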

How the results depend on the processing

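The 95 results followed here are called members of largest change with a mean of at least 100, CLDN4, CLDN6, CLDN7, OCLN and TJP1, and the largest differences. Of their 1279 recomputed values, 1252 kept direction and side of the threshold, 27 kept direction and lost the call, and 0 reversed. The lost calls are named beside their results. Some calls outside the 95 were less stable: PATJ in shFOXO4 D7 was lost in 7 of 13 alternatives and CLDN9 in shFOXO4 D3 in 6 of 12. Without 1 library each, the members called numbered 21 to 24 in SE D3 (23 with all libraries), 22 to 24 in shFOXO4 D3 (25), 22 to 23 in shFOXO4 D7 (25), 15 to 21 in shSP6 D3 (17) and 16 to 21 in shSP6 D7 (20), and for the differences 17 to 18 (17), 13 to 18 (17), 8 to 13 (11) and 16 to 18 (18). With DESeq2 the first 5 were 23, 22, 22, 16 and 18, and with edgeR 24, 26, 25, 17 and 20. Leaving out CLDN2 and CLDN5 where they passed the filter only through one group, an alternative chosen after seeing the data, gave 21 in SE D3 and 24 in shFOXO4 D7, and 17 for the day 7 difference between knockdowns. No scaling moved the share of higher calls among all genes by more than 10 points.

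Same-numbered replicates did not deviate together (correlations of -0.050 to 0.059), so no large effect shared by same-numbered libraries was seen. Whether they were made as pairs is not given in the labels. With a replicate block the members called were 23, 26, 25, 17 and 20 in the 5 comparisons, and 18, 17, 10 and 18 for the 4 differences.

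The CLDN6 share difference was -12.0 points in SE D3, -13.4 with coding length and -15.9 with no length scaling. It was 9.84, 10.3 and 12.2 in shFOXO4 D3, and 1.11, 3.04 and 2.45 in shFOXO4 D7, in the same order. In shSP6 D3 it was 8.05, and 9.35 with no length scaling. In shSP6 D7 it was 1.07, 4.62 and 4.24. Leaving out 1 library gave -12.5 to -11.5, 9.58 to 10.1, 0.382 to 1.84, 7.35 to 8.74 and 0.531 to 1.62. The length used sets these shares by construction. Members below a mean of 10 or not listed, among them CLDN8, CLDN14, CLDN16, CLDN18 and CLDN20 in every table, could not be compared at this depth.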
